A study of Zea mays with 3 samples.

Results

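Of 42034 maize transcripts measured in anthers, 11 were lower at 1.5 mm than at 1.0 mm and lower again at 2.0 mm, in both of the lines compared and with little difference between the lines. They were selected on their mean log2 intensities. Each had to be lower by 0.7 or more (1.62-fold) at step 1, 1.5 mm against 1.0 mm, and again at step 2, 2.0 mm against 1.5 mm. This had to hold in both lines, with a mean difference between the lines under 0.58 (1.49-fold) at every stage. The differences at the steps and between the lines therefore describe how the transcripts were chosen and carry no test. As transcripts the 11 are a mostly unnamed set, and their arrays spread widely around the means that selected them.

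RNA came from field-grown anthers of a Mu-active line, in which Mutator transposons move, and of a Mu-inactive line, in which they are silent. Whole anthers of 1.0 mm, of 1.5 mm and of 2.0 mm were collected with no treatment, and the sample descriptions do not name the inbred background or an age in days. Each stage had 4 two-color 4x44K arrays, each carrying both lines, with the dyes exchanged in a pair of the 4. Directions between the lines follow the ratios deposited for each stage, which correlated with the ratio of Mu-active to Mu-inactive anthers used here at 0.991, 0.988 and 0.991 (Pearson's r, across probes) from the shortest to the longest anthers. Taken by number, the sample descriptions would exchange the lines. MuDR, the element that drives Mutator activity, has 4 probes on the array. In the directions used here the probe named MUDRB was higher in Mu-active anthers by 0.36, 0.33 and 0.18 on the log2 scale at 1.0, 1.5 and 2.0 mm, in 4 of 4 arrays at each stage, and that named MUDR-TIRA by 0.16, 0.49 and 0.95, in 3, 4 and 4 of 4 arrays. None of the 4 probes passed an adjusted p of 0.05 at any stage (limma), the lowest being 0.129 for MUDRB at 1.0 mm, and the probes of MUDRA were within 0.20 of 0. The choice of transcripts does not depend on this, since the rule treats both lines alike, and all 11 were chosen again with the lines exchanged. Nothing shows that the 4 extracts of a line came from separate plants, so the spread between arrays may be partly technical. Because the RNA is from whole organs, fewer cells of a type and less RNA per cell cannot be told apart.

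The anther lobe is built of a central file of germinal cells and somatic layers around them: tapetum, middle layer, endothecium and epidermis. Over the lengths sampled here the germinal cells stop dividing and enter meiosis as pollen mother cells. The tapetum meanwhile becomes the secretory layer that feeds them.

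Tissue identity was checked with known anther genes. Of 15 marker genes listed for meiocytes, tapetum and epidermis, 8 were paired with 11 probes, and 8 of these probes were ON in both lines at all stages. A probe is ON where at least 3 of 4 arrays exceed a level 3 SD over the mean of the 153 negative control spots in that channel, which lay between 78.7 and 90.4 in normalized intensity. Of all 42034 transcripts, 27106 to 31804 were ON in a given line and stage. The count of ON markers alone therefore says little about the tissue. Among the marker probes, that of bHLH51, a tapetal regulator, had geometric mean intensities of 3081, 4703 and 28972 in order of anther length in the Mu-active line and 3168, 5494 and 23226 in the Mu-inactive line. Ms26, also listed for the tapetum, was at 91.4, 95.3 and 212 in Mu-active and 91.5, 93.3 and 152 in Mu-inactive anthers. The probes of the meiocyte genes Ameiotic1, Afd1, Phs1 and Spo11-1 were dim, between 92.0 and 195 in every line and stage. Ameiotic1 was at 184, 152 and 109 in Mu-active and 195, 162 and 118 in Mu-inactive anthers. Ocl4, an epidermal transcription factor, was read by a pair of probes. The brighter was lower at both steps but did not meet the rule, its step 2 in Mu-inactive anthers being too small. It was at 5015, 1894 and 1051 in Mu-active and 4751, 2049 and 1412 in Mu-inactive anthers. The dimmer was at 121, 93.6 and 86.9 in Mu-active and 124, 101 and 85.5 in Mu-inactive anthers. The part of the epidermis in the steps of the 11 was not tested. The probe of Mac1, a ligand of the inner anther, was not ON in either line at any stage. Before normalization the median spot of a channel read 121 to 230.5 at 1.0 mm, 83 to 112 at 1.5 mm and 91 to 130 at 2.0 mm. Each stage was hybridized on a slide of its own, the 1.0 mm slide was scanned on another day than the others, and slide and stage cannot be told apart. No p-value between stages is therefore given.

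The threshold at step 1 was met in both lines by 750 transcripts (1.78% of all), whatever they did at step 2, and that at step 2 by 922 (2.19%). Both steps in both lines were met by 15 transcripts (0.0357%). Of these, 4 differed by 0.58 or more between the lines at a stage, which left the 11 (0.0262%). The mirror image, higher by 0.7 or more at both steps in both lines, was met by 68 transcripts (0.162%). The plot of step 1 against step 2 shows where the 11 stood among all transcripts.

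**Figure D1:**
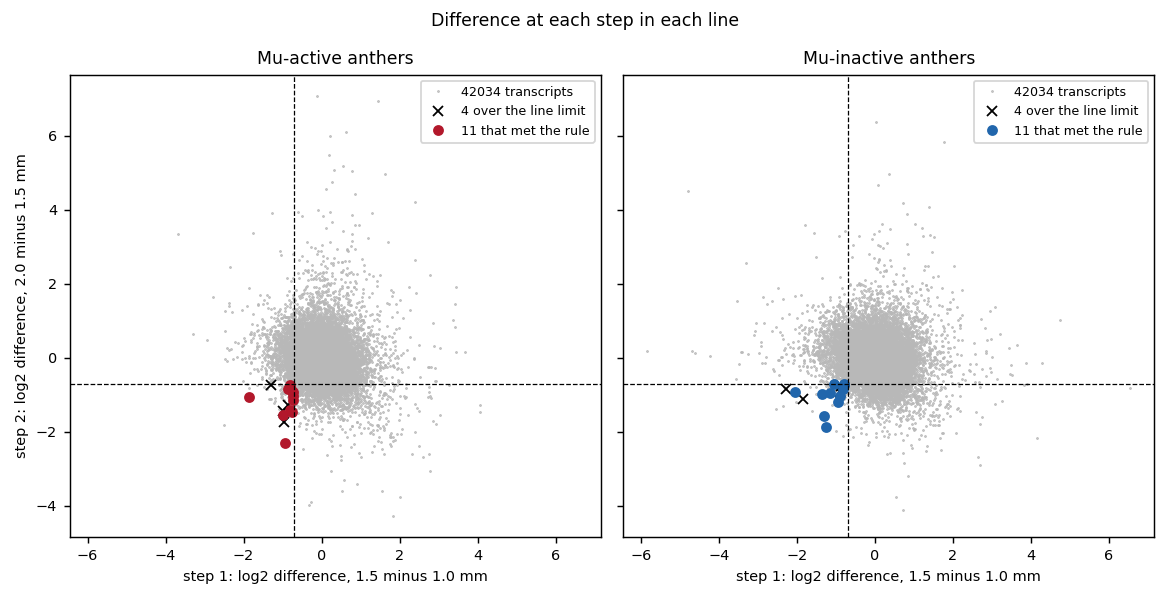
Each point is 1 transcript, with the log2 difference of 1.5 minus 1.0 mm on the x axis and of 2.0 minus 1.5 mm on the y axis, in Mu-active (left) and Mu-inactive (right) anthers. Dashed lines mark -0.7. The 11 transcripts that met the rule (filled) and 4 that exceeded the limit on the line difference (crosses) lie in the sparse lower left corner of both panels.

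The median log2 difference of the 11 at step 1 was -0.81 in Mu-active and -1.06 in Mu-inactive anthers, and at step 2 it was -1.05 in Mu-active and -0.95 in Mu-inactive anthers. Over all 42034 transcripts the median differed from 0 by at most 0.01 at either step. The normalization gives all channels a common distribution of intensities, which largely fixes that value, so nothing is read from it. The largest differences belonged to A_92_P012220 at step 2 in Mu-active anthers (-2.31) and A_92_P023963 at step 1 in Mu-inactive anthers (-2.05). The 11 started bright. Their median level stood at the 95.9th percentile of all transcripts in Mu-active and the 95.8th in Mu-inactive anthers at 1.0 mm. At 2.0 mm it stood at the 86.9th percentile in Mu-active and the 87.5th in Mu-inactive anthers. With no background subtracted, dim transcripts had no room to fall by the threshold at both steps. The bright start and the lower place at 2.0 mm are therefore largely set by the rule, and nothing is read from them. No spot of the 11 was saturated or carried an outlier flag, and 1 of 264 values was not well above its local background.

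Gene models could be assigned to 6 of the 11, and only 1 of the 6 carries a descriptive gene name. That transcript, A_92_P015327, is paired with GRMZM2G092091, listed in the B73 reference as bHLH27. Basic helix-loop-helix proteins bind DNA as dimers and regulate transcription, and several of them control tapetum development in maize. The bHLH27 transcript was the dimmest of the 11. In Mu-active anthers its intensities were 392, 270, 425 and 175 at 1.0 mm, 249, 140, 143 and 212 at 1.5 mm, and 118, 83.8, 86.6 and 96.2 at 2.0 mm. In Mu-inactive anthers they were 204, 492, 381 and 399 at 1.0 mm, 176, 116, 206 and 309 at 1.5 mm, and 88.6, 98.4, 89.2 and 96.5 at 2.0 mm. At 2.0 mm its arrays lay between 83.8 and 118, close to the negative controls, and it was ON in 3 of 4 arrays of each line. Its step 2 is therefore limited by background. It was the only one of the 11 whose arrays at 1.5 mm all lay above those at 2.0 mm in both lines.

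The largest total difference was that of A_92_P012220, named for the EST AW497968 and paired with GRMZM2G361518, which has no description. In Mu-active anthers its intensities were 6495, 6890, 7057 and 5178 at 1.0 mm, 4077, 2119, 2388 and 6025 at 1.5 mm, and 454, 272, 1675 and 1002 at 2.0 mm. In Mu-inactive anthers they were 4205, 10351, 5000 and 8891 at 1.0 mm, 1238, 1468, 8314 and 3962 at 1.5 mm, and 331, 660, 1024 and 1501 at 2.0 mm. The 1.0 and 2.0 mm arrays did not overlap in either line, while at 1.5 mm some arrays reached the 1.0 mm range. Its total log2 difference over both steps was -3.24 in Mu-active anthers, 9.43-fold, and -3.12 in Mu-inactive anthers, 8.72-fold. Most of this came at step 2, since step 1 made up 28.7% of the fall in Mu-active and 40.1% in Mu-inactive anthers.

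A_92_P023963, for the contig TC295374 and the undescribed gene model GRMZM2G385543, had the opposite pace. Its intensities in Mu-active anthers were 3101, 1630, 2832 and 687 at 1.0 mm, 706, 260, 394 and 767 at 1.5 mm, and 210, 168, 423 and 202 at 2.0 mm. In Mu-inactive anthers they were 1182, 2324, 2507 and 2355 at 1.0 mm, 300, 148, 1330 and 944 at 1.5 mm, and 153, 316, 334 and 271 at 2.0 mm. One 1.0 mm array was low in each line, array 4 in Mu-active and array 1 in Mu-inactive anthers, where the line was labeled with Cy5. Step 1 made up 64.0% of the fall in Mu-active and 69.0% in Mu-inactive anthers, the highest shares among the 11. The total was 7.55-fold in Mu-active and 7.80-fold in Mu-inactive anthers.

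A_92_P034208, for TC300108 and GRMZM2G136831 (LOC100276499, a hypothetical protein), came closest to the limit on the line difference. In Mu-active anthers its intensities were 10022, 5093, 4966 and 1195 at 1.0 mm, 7256, 3246, 876 and 926 at 1.5 mm, and 678, 420, 1575 and 600 at 2.0 mm. In Mu-inactive anthers they were 6709, 3590, 2072 and 2017 at 1.0 mm, 1801, 733, 2812 and 1099 at 1.5 mm, and 580, 1050, 528 and 905 at 2.0 mm. In Mu-active anthers the arrays of every stage overlapped those of every other stage, because 1 of the 1.0 mm arrays was at 1195 and 1 of the 2.0 mm arrays at 1575. Its log2 difference of Mu-active minus Mu-inactive anthers was 0.40 at 1.0 mm, 0.56 at 1.5 mm and -0.03 at 2.0 mm.

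A_92_P002605, for TC295476 and GRMZM5G821139 (LOC100273970), had 5000, 3431, 3164 and 1301 at 1.0 mm, 1985, 1240, 918 and 4124 at 1.5 mm, and 1639, 296, 1403 and 576 at 2.0 mm in Mu-active anthers. In Mu-inactive anthers it had 3207, 2885, 4128 and 4509 at 1.0 mm, 1192, 610, 3681 and 1545 at 1.5 mm, and 348, 1059, 708 and 1025 at 2.0 mm. The stages were separate at their ends only in Mu-inactive anthers, where all 1.0 mm arrays were above all 2.0 mm arrays. A_92_P024536, for DN560441 and the undescribed GRMZM2G344521, was the least changed of the 11, 2.93-fold lower over both steps in Mu-active and 2.85-fold in Mu-inactive anthers. Its mean intensity was 728 ± 174, 426 ± 148 and 245.5 ± 46.6 at 1.0, 1.5 and 2.0 mm in Mu-active anthers and 716 ± 157, 423 ± 135 and 255.5 ± 68.6 in Mu-inactive anthers (SD, n = 4). In Mu-inactive anthers its 1.0 mm arrays (557 to 872) all exceeded its 1.5 mm arrays (266 to 554), the only such case among the 11 in either line.

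The other 5 transcripts are known only by the name of a contig. A_92_P027235 (TC298216) was the brightest, with 26889 to 45603 at 1.0 mm, 15994 to 27934 at 1.5 mm and 5960 to 18127 at 2.0 mm in Mu-active anthers. In Mu-inactive anthers it had 32805 to 42993 at 1.0 mm, 13971 to 34610 at 1.5 mm and 6863 to 18813 at 2.0 mm. Even at 2.0 mm it stood at the 99.5th percentile of all transcripts in Mu-active and the 99.6th in Mu-inactive anthers. A_92_P014933 (TC281455) declined in even steps, with mean intensities of 5680 ± 536, 3450 ± 1798 and 1938 ± 1190 at 1.0, 1.5 and 2.0 mm in Mu-active anthers and 5738 ± 1009, 3558 ± 1738 and 1901 ± 770 in Mu-inactive anthers (SD, n = 4). Its steps were -0.87 and -0.86 in Mu-active and -0.82 and -0.84 in Mu-inactive anthers.

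A_92_P030180 (TC285561) had a total log2 difference of -2.23 in Mu-active and -2.88 in Mu-inactive anthers. Its arrays in Mu-active anthers were 790 to 2436 at 1.0 mm, 761.7 to 1454 at 1.5 mm and 255 to 569 at 2.0 mm. In Mu-inactive anthers they were 2071 to 2557 at 1.0 mm, 314 to 2849 at 1.5 mm and 233 to 439 at 2.0 mm, so that the 1.5 mm arrays spanned the whole 1.0 mm range. A_92_P017484 (TC302957) had a total of -2.21 in Mu-active and -2.14 in Mu-inactive anthers, with most of it at step 2 in both lines. A_92_P028522 (TC313958) had a total of -1.79 in Mu-active and -1.76 in Mu-inactive anthers, and its step 2 in Mu-inactive anthers, at -0.702, lay nearest to the threshold. The plot of single arrays shows all 11.

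**Figure D2:**
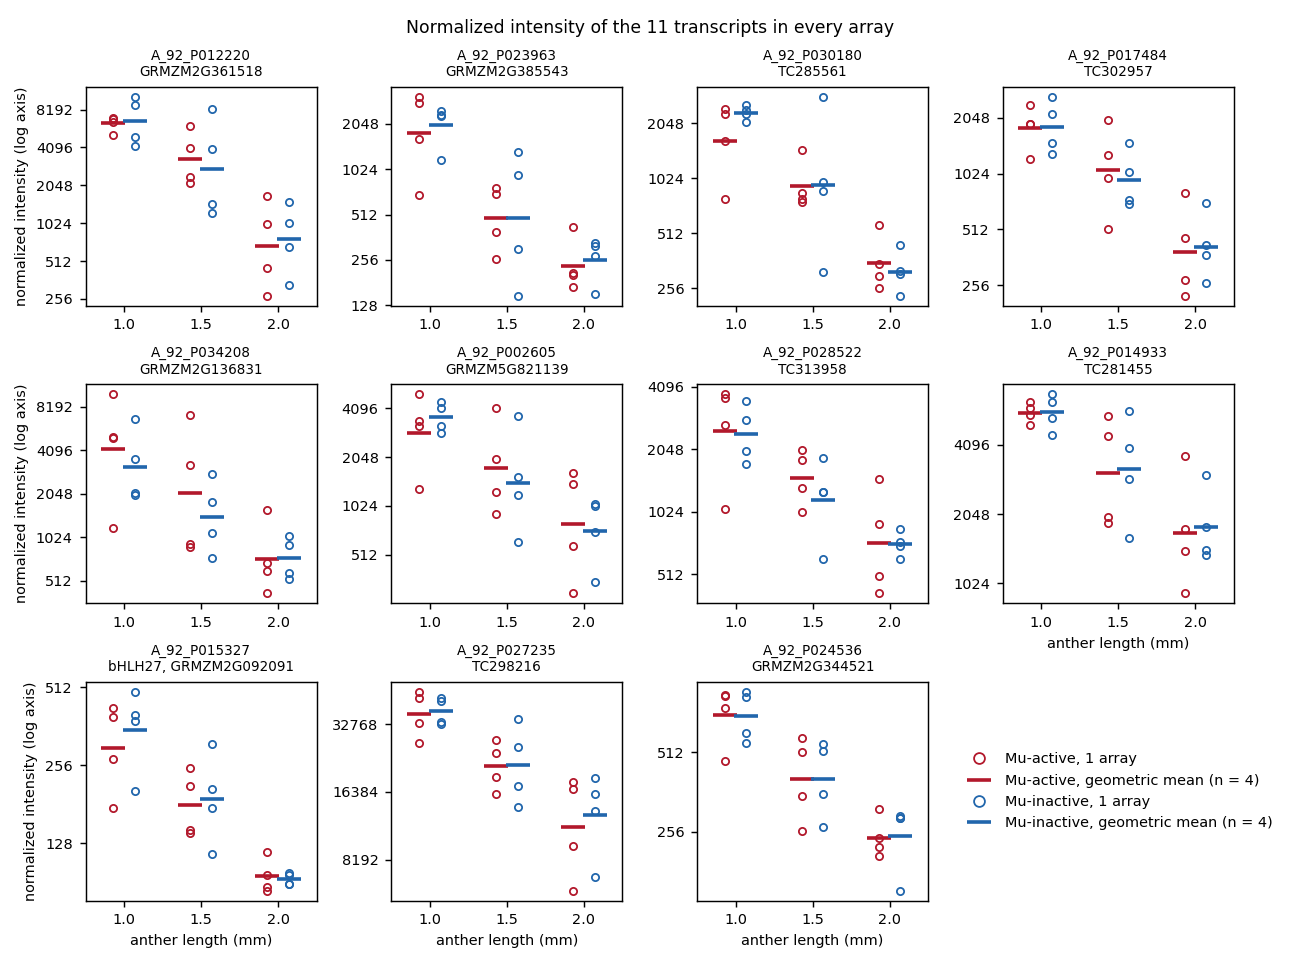
Normalized intensity on a log2-spaced axis against anther length for each of the 11 transcripts, with Mu-active anthers in red on the left and Mu-inactive anthers in blue on the right at each length. Circles are single arrays and bars geometric means (n = 4). The means step down at both steps in every panel, and the circles at 1.5 mm overlap those at 1.0 mm in all panels for Mu-active and in all but A_92_P024536 for Mu-inactive anthers.

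The threshold cut through a continuous range. Just inside it, with their weakest of the 4 steps, were A_92_P028522 at -0.702, A_92_P024536 at -0.718 and A_92_P015327 at -0.724. Just outside were A_92_P014960 at -0.697, A_92_P005235 at -0.692 and A_92_P024947 at -0.691. The 4 transcripts that met both steps but exceeded the line limit were A_92_P007699 (GRMZM2G369703), A_92_P017530 (GRMZM2G019317), A_92_P025490 (GRMZM2G120320) and A_92_P029444 (GRMZM2G437859). Their log2 differences of Mu-active minus Mu-inactive anthers at the stage that exceeded it were -0.80 and -0.76 at 1.0 mm for A_92_P007699 and A_92_P017530, and -0.79 and -0.62 at 2.0 mm for A_92_P025490 and A_92_P029444.

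The array carries other probes for a few of these genes, and these were not used in the choice. The contig TC285561 has a second probe, A_92_P007214, which was at 82.4 ± 4.27, 98.2 ± 14.1 and 82.5 ± 5.92 at 1.0, 1.5 and 2.0 mm in Mu-active anthers and 88.0 ± 4.34, 90.3 ± 11.6 and 77.3 ± 3.99 in Mu-inactive anthers (SD, n = 4). It lay close to the ON limit, above it in 3 of 4 arrays of each line at 1.0 mm and in 0 of 4 Mu-active and 1 of 4 Mu-inactive arrays at 2.0 mm, and its steps were 0.24 and -0.24 in Mu-active and 0.03 and -0.22 in Mu-inactive anthers. GRMZM2G344521 is also paired with A_92_P000105, at 105 ± 12.6, 90.3 ± 8.10 and 81.7 ± 3.36 in Mu-active anthers and 101 ± 5.41, 91.5 ± 8.33 and 81.8 ± 6.76 in Mu-inactive anthers (SD, n = 4). Its steps were -0.21 and -0.14 in Mu-active and -0.14 and -0.16 in Mu-inactive anthers, and it too lay near the negative controls. Among the transcripts over the line limit, the gene of A_92_P017530 has a pair of further probes. A_92_P019232 was at 219 in Mu-active and 270 in Mu-inactive anthers at 1.0 mm, and its steps were -0.38 and -0.70 in Mu-active and -0.34 and -1.17 in Mu-inactive anthers. A_92_P033022 had steps of -0.31 and 0.20 in Mu-active and -0.26 and 0.07 in Mu-inactive anthers. Which of the paired probes reads the transcript was not tested.

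The annotation is too thin to place the 11 in pathways. Of 14 lists of genes by function, which together hold 574 probes with matching annotation text, none holds any of the 11, and no listed probe was lower by 0.7 or more at both steps in both lines. Only 0.0357% of all transcripts met both steps, so lists of this size may well hold none, and nothing is read from their absence. The transcription factor list holds 100 probes, of which 8 met step 1 and 3 met step 2 in both lines, with bHLH27 outside it because its annotation text is only that of a hypothetical protein. The signaling list holds 157 probes, of which 9 met step 1 and 7 met step 2. These are the largest of the lists. Over all transcripts 1.78% met step 1 and 2.19% met step 2. Listed probes were picked by their annotation text, so nothing is read from these counts. The median log2 difference of the transcription factor list was -0.02 at step 1 and -0.04 at step 2 in Mu-active anthers, and -0.05 and 0.02 in Mu-inactive anthers.

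Single arrays of adjacent stages overlapped for nearly all of the 11. None had all 4 arrays at 1.0 mm above all 4 at 1.5 mm in both lines, against 3.72% of all transcripts. At step 2 this held for 1 of the 11, against 2.48%, and for the whole interval, 1.0 mm above 2.0 mm, it held for 8 of 11, against 4.53%. The 3 that overlapped over the whole interval did so in Mu-active anthers only, and were A_92_P034208, A_92_P002605 and A_92_P028522. Since the 11 were chosen for lower means, these counts describe them and nothing is read from the comparison.

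The spread of the 11 between arrays was wide for their brightness. At 1.5 mm their median SD over 4 arrays was 0.70 on the log2 scale in Mu-active and 0.77 in Mu-inactive anthers. The brightest 25% of all transcripts (10509), which include 10 of the 11, had 0.33 in Mu-active and 0.31 in Mu-inactive anthers. At 1.0 mm the 11 had 0.59 in Mu-active and 0.46 in Mu-inactive anthers, and at 2.0 mm 0.81 in Mu-active and 0.52 in Mu-inactive anthers. These SDs are of the same order as the single steps.

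The 11 leaned the same way in several arrays. Within arrays, the log2 ratio of Mu-active to Mu-inactive anthers was below 0 in all 11 in 1.5 mm array 3, with a median of -1.11 and none above -0.52. It was above 0 in all 11 in 1.5 mm array 1, with a median of 0.70. Mu-active RNA carried Cy5 in arrays 3 and 4 and Cy3 in arrays 1 and 2, so the Cy3 channel was the brighter for all 11 in both of these arrays. The median over all transcripts was -0.01 in array 3 and 0.01 in array 1, which the normalization within arrays largely fixes. In 1.0 mm array 4, where Mu-active RNA carried Cy5, all 11 were again below 0, with a median of -0.78. In 2.0 mm array 2 the direction was the other way, with Cy5 the brighter channel in 10 of 11. The part of the dye and of single arrays in the steps was not tested beyond the values given here.

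**Figure D3:**
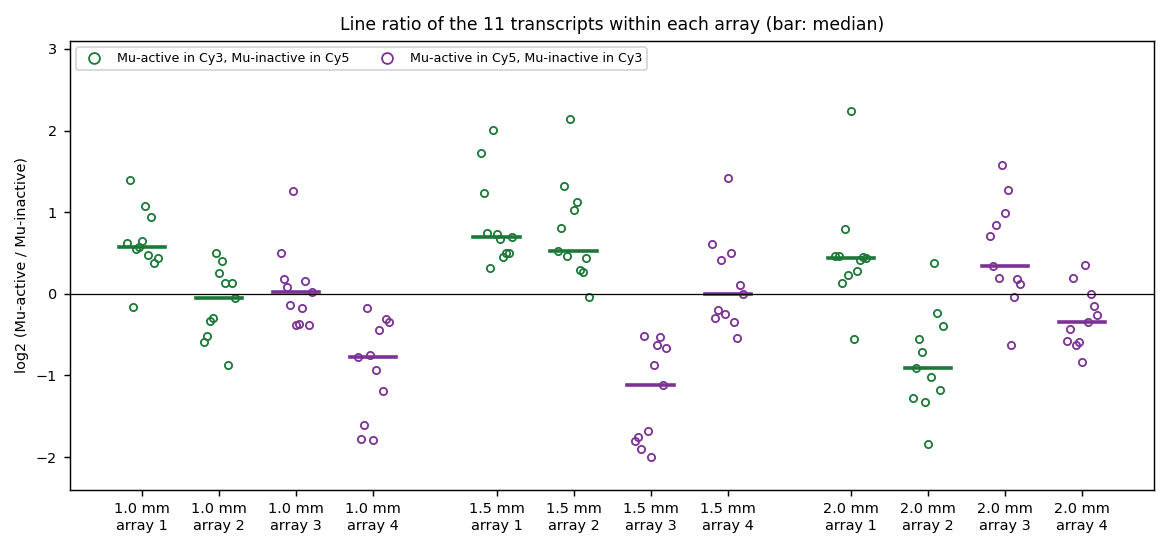
Log2 ratio of Mu-active to Mu-inactive anthers for the 11 transcripts (circles) in each of the 12 arrays, with the median as a bar. Green marks arrays with Mu-active RNA in Cy3 and purple those with it in Cy5. All 11 lie above 0 in 1.5 mm array 1 and below 0 in 1.0 mm array 4 and 1.5 mm array 3.

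Taken within a single dye, with 2 arrays per line and stage, the steps kept their sign in nearly all cases but not their size. In the Cy5 channel 42 of the 44 steps (11 transcripts, 2 steps, both lines) were below 0 and 26 reached -0.7, and in the Cy3 channel 44 were below 0 and 34 reached -0.7. The mean of the Cy5 and Cy3 values is the step itself, which was chosen at -0.7 or lower. The counts below 0 are therefore largely fixed by the choice, and nothing is read from them. The median at step 1 was -0.67 in Mu-active and -1.34 in Mu-inactive anthers in Cy5, and -1.04 in Mu-active and -0.63 in Mu-inactive anthers in Cy3. At step 2 it was -0.91 in Mu-active and -0.56 in Mu-inactive anthers in Cy5, and -1.52 in Mu-active and -1.35 in Mu-inactive anthers in Cy3. The exceptions above 0 were A_92_P034208 at step 2 in Mu-active anthers (0.11) and A_92_P023963 at step 2 in Mu-inactive anthers (0.06), both in Cy5.

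The line comparison asked whether active transposons go with altered transcript levels. In the limma fit with a dye term, 158 transcripts (0.376%) differed between the lines at 1.0 mm, 198 (0.471%) at 1.5 mm and 364 (0.866%) at 2.0 mm, at an adjusted p under 0.05. None of the 11 was among them, and the limit on the line difference had used the same contrast. The count of the 11 at an unadjusted p under 0.05 was also 0 at each stage, against 3719, 4205 and 5157 of all transcripts at 1.0, 1.5 and 2.0 mm. Since that limit largely fixes both counts, nothing is read from them.

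Step 1 made up a median of 41.5% of the fall in Mu-active and 51.7% in Mu-inactive anthers, and its share was the smaller in Mu-active anthers for 10 of 11. The order differed between the dyes. The share was the smaller in Mu-active anthers for 8 of 11 in Cy5 and for 1 of 11 in Cy3. Step 2 was the larger step in both lines for 4 of the 11, step 1 for 2, and the lines differed for 5. These shares turn on the level of the 1.5 mm arrays.

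Membership depended on single arrays. With 1 of the 12 arrays left out at a time, between 0 and 10 of the 11 were chosen again. Without 1.5 mm array 3 none was, and the rule then chose 3 other transcripts. Without 1.0 mm array 1 it chose 4 of the 11 again, without 1.5 mm array 2 or array 4 it chose 5, and without 1.0 mm array 2 or 3, 1.5 mm array 1 or 2.0 mm array 1 it chose 7. The weakest step of every transcript except A_92_P012220 came above -0.7 in at least 1 of the 12 omissions. All 44 steps stayed below 0 in each omission, which the choice of steps at -0.7 or lower largely fixes. A_92_P012220 (GRMZM2G361518) was chosen in 11 of 12 omissions, A_92_P017484 (TC302957) in 10 and A_92_P030180 (TC285561) in 9. A_92_P028522 and A_92_P027235 were chosen in 4 each.

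The size of the steps also rested on the scale set between arrays. The E1A spike-in RNAs, control transcripts added to the labeling reactions, averaged 11.3 at 1.0 mm, 12.4 at 1.5 mm and 12.7 at 2.0 mm in log2 intensity after normalization, so scaling to them lowers the later stages. The median of all transcripts then shifted by -1.50 at step 1 and -0.08 at step 2 in Mu-active anthers, and by -0.74 and -0.56 in Mu-inactive anthers. This scaling adds 1 constant to each channel, so the place of the 11 relative to all transcripts is by construction that of the main setting. Without scaling between arrays the shift at step 1 was -0.55 in Mu-active and -0.53 in Mu-inactive anthers. With the scanner's processed signals, scaled to a common median with no loess, the median of all transcripts shifted at step 1 by 0.32 in Mu-active and 0.36 in Mu-inactive anthers. Step 1 was then above 0 for A_92_P017484, A_92_P028522, A_92_P014933 and A_92_P027235 in Mu-active anthers and for A_92_P014933 and A_92_P027235 in Mu-inactive anthers. Of these only A_92_P027235 was above the shift of all transcripts, in both lines. Step 2 stayed below 0 throughout under that setting.

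**Figure D4:**
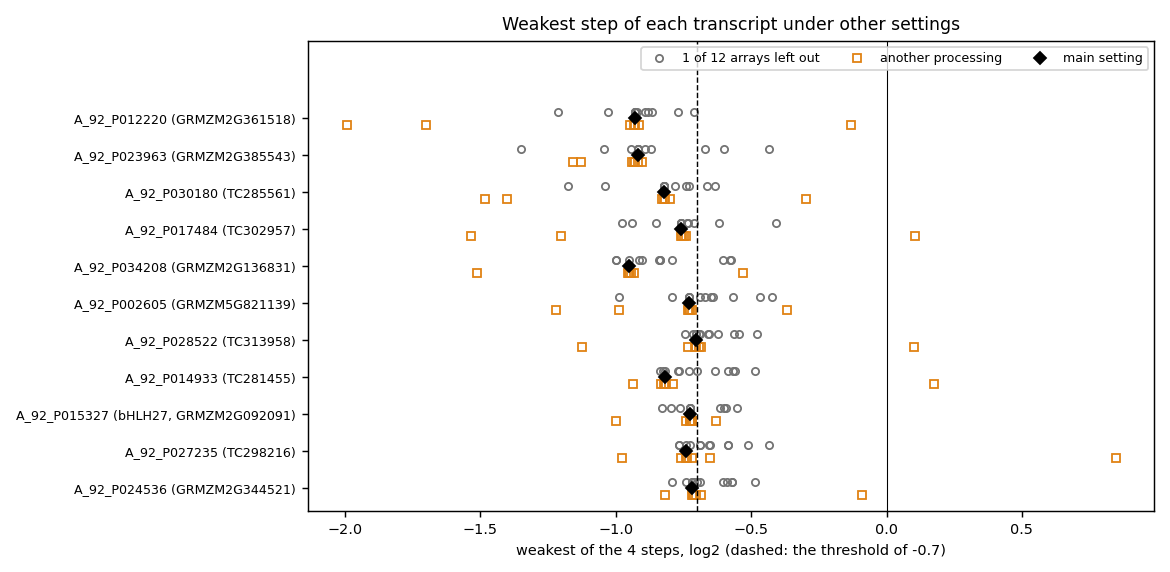
The weakest of the 4 steps (the highest log2 difference) of each of the 11 transcripts in the main setting (black), with 1 of 12 arrays left out (gray circles) and under 7 other processings (orange squares). The dashed line is the threshold of -0.7. Gray circles stay below 0, which the choice of the 11 largely fixes, and, except for A_92_P012220, cross the threshold. The orange squares above 0 are those of the processed signals.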

How the data were processed

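The authors deposited 1 scanner file per array (Agilent Feature Extraction 9.5.3.1, per the file headers) with median foreground intensities of 43451 spots in Cy3 and Cy5 on a linear scale, not normalized, and a table of log2 ratios, 1 per probe and stage, which the authors deposited with scale and centring unstated and which was used for direction only. With no background subtracted, limma 3.58.1 (R 4.3.3) fitted a loess to each array with control spots at weight 0 and then set all channels to common quantiles, and log2 values were averaged over 4 arrays. The rule took transcripts as described above, with a cap of 200 that was not reached. The members and the lists were chosen with earlier results of these data known. Line differences were fitted with limma on log2 ratios of 12 arrays, with 1 term for each stage and 1 for the dye, and adjusted by Benjamini-Hochberg. Flagged outlier spots did not enter that fit. Its p-values set each line difference against the spread between arrays, estimated over all stages together. That spread may be partly technical, so the calls are not shown to hold between plants. Both procedures were tested on simulated data. The chosen transcripts had median SDs between arrays of 0.46 to 0.81 on the log2 scale, by stage and line. The simulation is no evidence that the choice is stable at that spread.

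Transcripts named were all 11, the 4 over the line limit, and the 3 nearest each side of the threshold. Gene models came from pairings of probes with gene models in the supplementary tables, available for 7743 probes, and names from the RefSeq table of the B73 assembly, which held 3 of the 6 gene models. No probe or promoter sequences were used here, and the motif search was not run. Alternatives covered background, signal, scaling, filters, thresholds, fits and leaving out arrays. Figures used matplotlib 3.10.9.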

Additional observations from a re-analysis of the deposited data

Results flagged for a closer look

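In 2 of 66 groups of 4 arrays (11 transcripts, 3 stages, 2 lines) 1 array stood far from the others, and chance alone sets such a gap in about 1 group in 20. A_92_P023963 (GRMZM2G385543) in Mu-inactive anthers at 1.0 mm was at 1182 in array 1 and at 2324 to 2507 in the others. A_92_P024536 (GRMZM2G344521) in Mu-inactive anthers at 2.0 mm was at 153 in array 1 and at 288 to 293 in the others. In both cases the low array carried Mu-inactive RNA in Cy5.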

How the results depend on the processing

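The rule chose 11 transcripts. It chose 309 with loess only, 39 with processed signals, 348 on the spike-in scale, 5 in the Cy5 channel only, 5 in the Cy3 channel only, 3 to 16 with the arrays of 1 number left out of every stage, and 0 with steps of 1.0 or more. Of the 11, it chose 1 again with processed signals, 0 in Cy5 only, 1 in Cy3 only and 0 to 5 with the arrays of 1 number left out, the lowest being without array 3. Leaving out 1 array of 1 stage gave 3 to 15 transcripts, and 0 to 10 of the 11 again.

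The median at step 1 was -1.72 with loess only, -0.17 with processed signals and -2.30 on the spike-in scale in Mu-active anthers, and -2.03 with loess only and -1.80 on the spike-in scale in Mu-inactive anthers. At step 2 it was -1.85 with processed signals in Mu-active anthers. With processed signals, which shifted the median of all transcripts at step 1 by 0.32 in Mu-active and 0.36 in Mu-inactive anthers, step 1 was 0.10 for A_92_P017484, 0.10 for A_92_P028522, 0.17 for A_92_P014933 and 0.85 for A_92_P027235 in Mu-active anthers, and 0.18 for A_92_P014933 and 0.70 for A_92_P027235 in Mu-inactive anthers. In Cy5 only, step 2 was 0.11 for A_92_P034208 in Mu-active and 0.0593 for A_92_P023963 in Mu-inactive anthers. The cause was not tested. Of 572 single steps recomputed, 497 moved by less than 1 SD between arrays. These SDs are of the same order as the steps, so the count is no measure of stability. Without the arrays numbered 3, all 44 single steps were among the 497, although 0 of the 11 were chosen again. Normexp, mean signals and control spots in the loess chose the same 11, and Aquantile chose 8 of them again. Leaving out flagged spots also chose the 11, but none of their spots was flagged, so their values could not change. The dye, single-array and control-spot alternatives were added after the data were seen.

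Line differences at an adjusted p under 0.05 numbered 28, 72 and 120 at 1.0, 1.5 and 2.0 mm with each stage fitted alone, and 361, 89 and 122 with loess only. Without 1 array of each stage they numbered 24 to 48 at 1.0 mm, 10 to 63 at 1.5 mm and 17 to 66 at 2.0 mm. The methods' cutoffs (0.58 on the log2 scale and an unadjusted p of 0.05) gave 917, 837 and 1176 instead. The line comparison was itself paired within arrays, as each array carries both lines. By replicate number no paired analysis was possible because the deposited arrays are not matched to those numbers. Signal limits bHLH27 at 2.0 mm, and with 4 arrays on 1 slide per stage the precision is low.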
